A study of Mus musculus with 9 samples.

Results

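Endothelial cells line the blood vessels of a tumour, and 34 genes known for endothelial identity, tip cells and vascular signalling were followed through 9 libraries of subcutaneous mouse tumours. The genes were taken by symbol. All 34 were found among the 35321 genes of the table, and 32 of them reached 1 FPKM (sequenced fragments scaled by gene length and library depth) in 3 or more of the 9 libraries, the condition for a test. Flt4, a receptor for lymphatic growth factors, and Tal1, a blood and endothelial transcription factor, stayed below that level and are given as values only.

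The tumours grew under the skin of male C57BL/6 mice, aged 4 to 5 weeks, after injection of LLC (Lewis lung carcinoma) cells, a line that itself comes from C57BL/6. Intraperitoneal treatment began 5 days later with vehicle (PBS), with digoxin at 0.1 mg/kg or with digoxin at 1 mg/kg, and each group has 3 samples. Digoxin is a cardiac glycoside that blocks the sodium and potassium pump of the cell membrane. All groups carry the same tumour line in the same mouse strain, and the comparisons asked which vascular transcripts of whole tumour tissue differed at each dose. Whether samples of 1 group came from separate mice is not stated in the labels, so p-values reflect the spread among these libraries alone, and part of it may be technical. A whole tumour holds many cell types, and which of them made the RNA of each gene was not measured. Fewer endothelial cells, less RNA per endothelial cell and RNA from other cells, tumour cells included, therefore cannot be told apart in any value below.

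In endothelium, VEGF ligands act on the receptor kinases Kdr and Flt1, while angiopoietins act on Tek with its partner Tie1. A sprouting tip cell makes the Notch ligand Dll4, which restrains its neighbours, and cells at the sprout also make Apln, Angpt2 and Esm1. ETS-family factors such as Erg and Fli1 and SOX factors such as Sox17 and Sox18 maintain endothelial genes including those of the cell junctions.

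The promoters of Cd34 and Apln, both lower at 0.1 mg/kg, are printed here as examples of where the ETS-type string GGAAG lies. They run from 250 bases before to 50 bases after the start of the gene in RefSeq on GRCm38.p6, 5′ to 3′ on the strand of the gene. Cd34 is at chr1:194938571-194938870 on the plus strand and Apln at chrX:48034804-48035103 on the minus strand. Capitals mark GGAAG, a string that holds the shorter ETS core GGAA, or its reverse complement CTTCC. Other GGAA or TTCC stretches, which the Cd34 window also has, are left in lower case.
Cd34: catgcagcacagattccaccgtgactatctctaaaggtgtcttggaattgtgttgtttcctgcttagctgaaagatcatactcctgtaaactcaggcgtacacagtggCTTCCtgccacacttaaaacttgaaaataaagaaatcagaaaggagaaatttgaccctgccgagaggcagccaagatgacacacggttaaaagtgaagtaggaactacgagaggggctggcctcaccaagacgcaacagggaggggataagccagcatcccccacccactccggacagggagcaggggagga
Apln: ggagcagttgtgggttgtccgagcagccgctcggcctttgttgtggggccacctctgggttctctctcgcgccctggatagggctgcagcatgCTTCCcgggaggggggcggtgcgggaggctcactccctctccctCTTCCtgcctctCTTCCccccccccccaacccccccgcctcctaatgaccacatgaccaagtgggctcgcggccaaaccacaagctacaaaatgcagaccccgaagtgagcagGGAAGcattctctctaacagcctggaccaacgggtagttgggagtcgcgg
The Cd34 window held 1 match to GGAAG or CTTCC and the Apln window 4 matches. RefSeq windows were matched for 17 of the 34 genes, with 22 windows in all. GGAAG or CTTCC was present in 16 of these 22 windows (72.7%), against 71.4% of the 32851 promoter windows of all genes. Counted by gene, 14 of the 17 had it in at least 1 window. Some of these genes have more than 1 window, which raises the count by gene. The share by gene over all genes was not counted, so no enrichment is read from it. A match is only a stretch of letters and shows no binding.

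Depth recovered from the FPKM values ranged over 40517062 to 51810956 reads and was highest in the vehicle libraries. Reads recovered from the FPKM values numbered at least 65 for each endothelial gene in every library, the fewest being those of Esm1 in sample 2 of the 0.1 mg/kg group. The endothelial markers Pecam1 and Cdh5 were above 4 FPKM in all 9 libraries. A pair of digoxin libraries stood apart from their groups over all tested genes. On the first principal component the vehicle libraries scored −55.04 to −47.63, the other 4 digoxin libraries 35.68 to 37.93, sample 2 of the 0.1 mg/kg group −0.60 and sample 1 of the 1 mg/kg group 9.12. Sample 1 of the 1 mg/kg group also scored −43.95 on the second component, where every other library lay between −1.17 and 19.07. Counts of endothelial genes are therefore also given without these libraries, and counts of the other lists where they then moved by more than 1.5 times. These libraries were picked from the same values that are tested, so calls gained without them are no independent support.

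Sample 1 of the 1 mg/kg group was low in nearly all of the endothelial genes. It held the lowest value of all 9 libraries for 29 of the 34 genes (85.3%), whereas it was lowest for 25.7% of all tested genes. Its median level was 35.8% of the mean of samples 2 and 3 of the same group over the 34 genes, and 92.2% over all tested genes. Apln was the exception within its group, with 23.0 FPKM in sample 1 against 17.0 and 19.4 FPKM in samples 2 and 3. In the 0.1 mg/kg group, sample 2 was the lowest of its group for 30 of the 34 genes, with a median of 74.0% of the other samples, against 99.5% over all tested genes. The geometric mean of the 32 tested genes was 4.24, 4.23 and 5.00 FPKM in the vehicle libraries, 4.53, 3.63 and 5.16 FPKM at 0.1 mg/kg, and 2.24, 5.87 and 5.96 FPKM at 1 mg/kg.

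**Figure D1:**
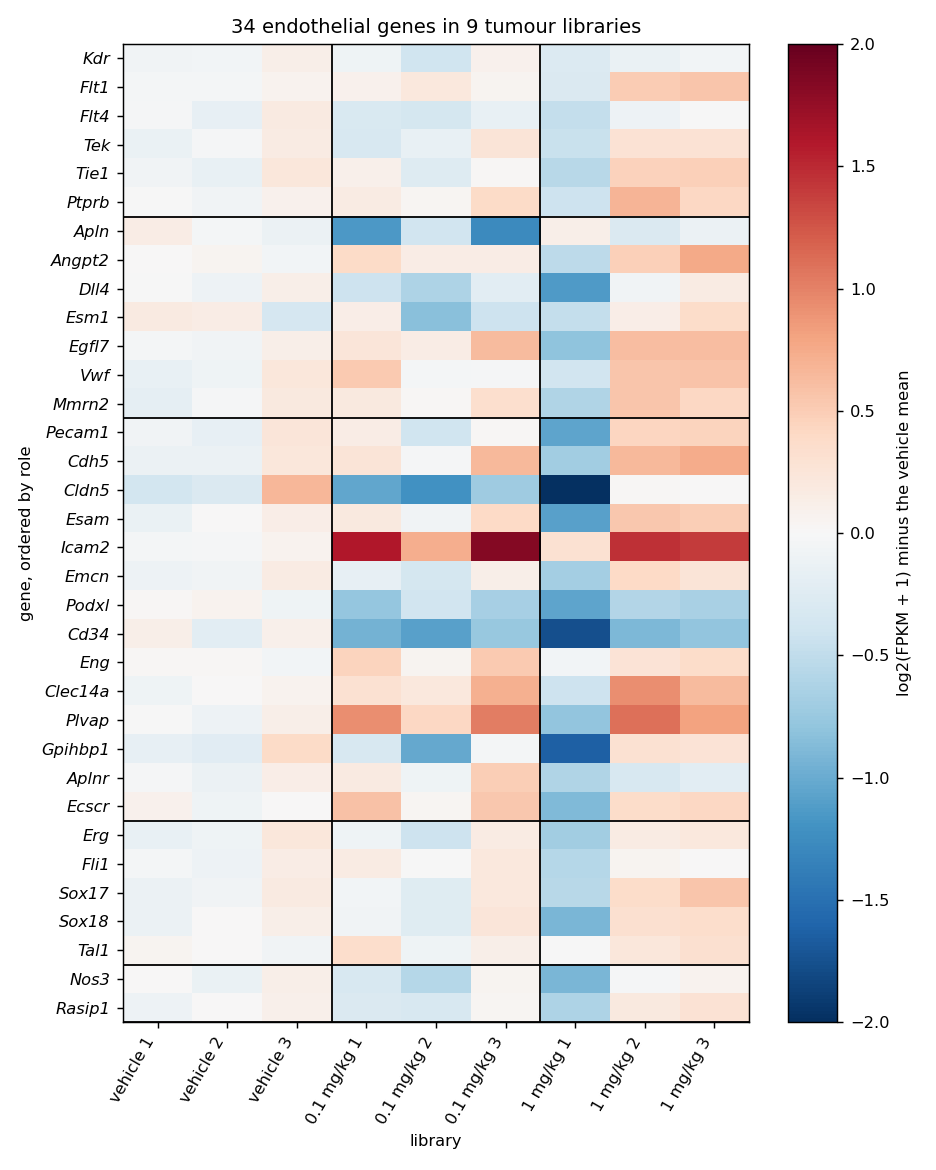
Each row is 1 of the 34 endothelial genes, in blocks of receptors, secreted factors, surface genes, transcription factors and intracellular signalling genes, and each column is 1 library. Colour gives log2(FPKM + 1) minus the mean of the 3 vehicle libraries. Sample 1 of the 1 mg/kg group is blue in nearly all rows, Icam2 is red and Cd34 and Podxl are blue in all 6 digoxin libraries.

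Most endothelial genes did not pass the test at either dose, and those that did went in both directions. At 0.1 mg/kg against vehicle, 4 of the 32 tested genes passed an adjusted p of 0.05 (12.5%), where 42.2% of all tested genes passed. Icam2 was higher, and Apln, Podxl and Cd34 were lower. At 1 mg/kg against vehicle, 3 of 32 passed (9.38%), where 45.9% of all tested genes passed, with Icam2 higher and Podxl and Cd34 lower. By direction, 21.6% of all tested genes were called higher and 20.7% lower at 0.1 mg/kg, and 20.7% higher and 25.2% lower at 1 mg/kg. The median log2 fold change of the 32 genes was −0.02 at 0.1 mg/kg, where that of all tested genes was 0.02. For 1 mg/kg the medians were −0.01 over the 32 genes, with −0.04 over all tested genes. Fold changes were taken on log2(FPKM + 1), a scale that understates changes of low genes, and both doses share the same vehicle libraries.

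Icam2, an adhesion molecule of endothelial junctions that leukocytes and platelets also carry, had 4.46, 4.50 and 4.91 FPKM in the vehicle libraries, 16.0, 8.27 and 19.0 FPKM at 0.1 mg/kg, and 5.90, 14.5 and 13.8 FPKM at 1 mg/kg. All 6 digoxin values lay above all 3 vehicle values, the nearest being sample 1 of the 1 mg/kg group. The means were 14.4 ± 5.53 FPKM at 0.1 mg/kg and 11.4 ± 4.78 FPKM at 1 mg/kg, against 4.62 ± 0.247 FPKM with vehicle (SD, n = 3 each). The log2 fold change at 0.1 mg/kg was 1.38 (SE 0.35; limma, adjusted p = 0.0146). That call was lost without sample 1 or sample 3 of the dose group, with an adjusted p of up to 0.0573 in limma. At 1 mg/kg the change was 1.05 (SE 0.35; limma, adjusted p = 0.0365), and the call was lost without any single vehicle sample and without sample 2 or 3 of the dose group, with an adjusted p of up to 0.116 in limma. It was also lost in limma-voom on recovered reads, with no filter on low values and with the sample number as a replicate block (limma, adjusted p = 0.0504). Without sample 1 of the 1 mg/kg group it was 1.43 (SE 0.28; limma, adjusted p = 0.0042).

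Cd34, a sialomucin of endothelium and of blood progenitors, had 10.1, 7.85 and 10.0 FPKM in the vehicle libraries, 4.33, 3.83 and 5.09 FPKM at 0.1 mg/kg, and 2.04, 4.54 and 4.97 FPKM at 1 mg/kg. Every digoxin value was below every vehicle value, and the means were 4.42 ± 0.639 FPKM at 0.1 mg/kg and 3.85 ± 1.58 FPKM at 1 mg/kg, against 9.32 ± 1.28 FPKM with vehicle (SD, n = 3 each). It fell by 0.93 on the log2 scale at 0.1 mg/kg (SE 0.24; limma, adjusted p = 0.0158) and by 1.14 at 1 mg/kg (SE 0.24; limma, adjusted p = 0.00602). The call at 0.1 mg/kg was lost without vehicle sample 1 or vehicle sample 3, with an adjusted p of up to 0.0569 in limma, while the call at 1 mg/kg stood in each of the 9 fits that left out 1 library.

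Podxl encodes podocalyxin, a relative of Cd34 on the luminal face of endothelium. Its values were 5.68, 5.87 and 5.18 FPKM with vehicle, 2.86, 4.07 and 3.17 FPKM at 0.1 mg/kg, and 2.16, 3.38 and 3.21 FPKM at 1 mg/kg, again with no overlap between digoxin and vehicle. The gene fell by 0.60 at 0.1 mg/kg (SE 0.15; limma, adjusted p = 0.0137) and by 0.76 at 1 mg/kg (SE 0.15; limma, adjusted p = 0.00463). At 0.1 mg/kg the call was lost without vehicle sample 2 or without sample 1 or 3 of the dose group, with an adjusted p of up to 0.0523 in limma. The call at 1 mg/kg stood in all 9 such fits.

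Apln, the peptide ligand made by sprouting cells, had 23.5, 20.4 and 19.4 FPKM with vehicle, 8.96, 15.9 and 8.14 FPKM at 0.1 mg/kg, and 23.0, 17.0 and 19.4 FPKM at 1 mg/kg. The 0.1 mg/kg values were all below those of both other groups, and the 1 mg/kg values overlapped those of vehicle. It fell by 0.93 on the log2 scale at 0.1 mg/kg (SE 0.22; limma, adjusted p = 0.0109), a call that no left-out library removed. The change at 1 mg/kg was −0.09 (SE 0.22; limma, adjusted p = 0.751).

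**Figure D2:**
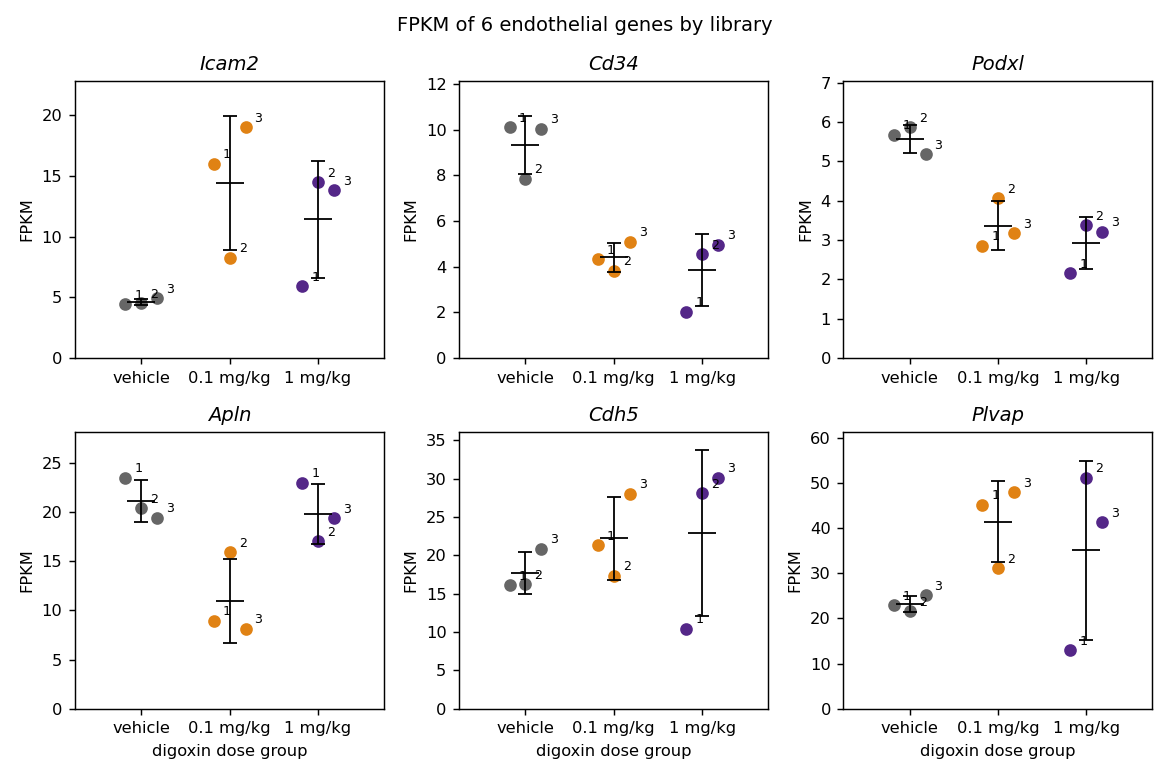
Points are the FPKM of single libraries, numbered by sample, for the genes Icam2, Cd34, Podxl, Apln, Cdh5 and Plvap in the groups vehicle, 0.1 mg/kg and 1 mg/kg. Bars give the mean and SD of 3 libraries. The digoxin values of Icam2 are all above vehicle, those of Cd34 and Podxl all below, and all 3 Apln values at 0.1 mg/kg lie below the other 6.

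Between the doses, none of the 32 genes passed at 1 mg/kg against 0.1 mg/kg (0%), where 0.0146% of all tested genes passed; limma-voom on recovered reads also gave 0. An unadjusted p under 0.05 was seen for 2 genes, the ligand Apln and its receptor Aplnr. The Apln difference was 0.84 (SE 0.22; limma, adjusted p = 0.173), and it passed without sample 2 of the 0.1 mg/kg group, at 1.11 (SE 0.13; limma, adjusted p = 0.016). Aplnr had 4.24, 3.87 and 4.83 FPKM with vehicle, 5.00, 4.01 and 6.47 FPKM at 0.1 mg/kg, and 2.49, 3.25 and 3.60 FPKM at 1 mg/kg. Its 1 mg/kg values lay below all others, with a difference of −0.57 from 0.1 mg/kg (SE 0.16; limma, adjusted p = 0.199).

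Among receptor kinases and their phosphatase, none of the 5 tested genes passed at either dose. Kdr, the main VEGF receptor of endothelium, ranged from 1.33 to 2.34 FPKM over the 9 libraries and its groups overlapped. Flt1, a VEGF receptor that also acts as a decoy, had 1.61, 1.61 and 1.81 FPKM with vehicle, 1.84, 2.09 and 1.77 FPKM at 0.1 mg/kg, and 1.18, 2.83 and 2.93 FPKM at 1 mg/kg. Tie1 was the most abundant of the group, with 5.44, 5.15 and 6.90 FPKM with vehicle, 6.32, 4.71 and 5.92 FPKM at 0.1 mg/kg, and 3.63, 8.35 and 8.45 FPKM at 1 mg/kg. In both genes sample 1 was the lowest and samples 2 and 3 the highest of all libraries at 1 mg/kg. Ptprb, a phosphatase that acts on Tek, followed with 0.933, 0.869 and 1.06 FPKM with vehicle, 1.19, 1.02 and 1.54 FPKM at 0.1 mg/kg, and 0.469, 2.13 and 1.60 FPKM at 1 mg/kg. Tek ranged from 0.482 to 1.46 FPKM with overlapping groups, while Flt4 stayed between 0.239 and 0.961 FPKM.

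Of the 7 ligands and secreted factors, Apln alone passed, and only at 0.1 mg/kg. Dll4 had 4.08, 3.78 and 4.57 FPKM with vehicle, 2.86, 2.36 and 3.42 FPKM at 0.1 mg/kg, and 1.34, 3.87 and 4.76 FPKM at 1 mg/kg. The 0.1 mg/kg values lay below vehicle without overlap, but the log2 difference of −0.41 did not pass (SE 0.29; limma, adjusted p = 0.278). Angpt2, which competes with Angpt1 at the Tek receptor, had 4.08, 4.25 and 3.85 FPKM with vehicle, 5.63, 4.61 and 4.62 FPKM at 0.1 mg/kg, and 2.52, 6.02 and 7.59 FPKM at 1 mg/kg. Its 0.1 mg/kg values were above vehicle without overlap, at a log2 difference of 0.23 (SE 0.28; limma, adjusted p = 0.527). Egfl7, a secreted matrix protein of vessels, also lay above vehicle at 0.1 mg/kg, with 10.4, 9.77 and 14.1 FPKM at that dose against 8.41, 8.20 and 9.53 FPKM with vehicle. In the 1 mg/kg group Egfl7 had 4.53, 13.9 and 13.9 FPKM, below vehicle in sample 1 and above it in samples 2 and 3.

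The remaining secreted factors had overlapping groups at both doses. Vwf, the adhesion protein of platelets and clotting, had 0.970, 1.07 and 1.55 FPKM with vehicle, 2.14, 1.11 and 1.15 FPKM at 0.1 mg/kg, and 0.664, 2.205 and 2.23 FPKM at 1 mg/kg. Mmrn2, a matrix glycoprotein of endothelium, had 2.44, 2.82 and 3.43 FPKM with vehicle, 3.46, 2.95 and 3.87 FPKM at 0.1 mg/kg, and 1.55, 4.69 and 4.17 FPKM at 1 mg/kg. Both were lowest of all in sample 1 of the 1 mg/kg group. Esm1, a proteoglycan of tip cells, ranged from 0.722 to 2.95 FPKM.

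The 14 junction and surface genes held the remaining calls. Eng, a co-receptor for TGF-beta family ligands, was the most abundant endothelial gene, with 42.5, 42.3 and 40.1 FPKM in the vehicle libraries, 56.9, 43.1 and 60.3 FPKM at 0.1 mg/kg, and 39.8, 50.7 and 54.0 FPKM at 1 mg/kg. At 0.1 mg/kg it lay above vehicle without overlap and its log2 difference was 0.34 (SE 0.15; limma, adjusted p = 0.0899). Plvap, which forms the diaphragms of fenestrae and caveolae, had 23.0, 21.5 and 25.1 FPKM with vehicle, 45.2, 31.1 and 47.9 FPKM at 0.1 mg/kg, and 13.0, 51.1 and 41.3 FPKM at 1 mg/kg. The 5 digoxin libraries other than sample 1 of the 1 mg/kg group were thus above vehicle, and that sample was below. The differences of 0.79 (SE 0.43; limma, adjusted p = 0.163) and 0.37 (SE 0.43; limma, adjusted p = 0.494) did not pass.

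Unlike Icam2, the genes Cdh5, Cldn5, Esam and Clec14a had their lowest value of all 9 libraries in sample 1 of the 1 mg/kg group. In samples 2 and 3 of that group Cdh5, Esam and Clec14a lay above vehicle, and Cldn5 lay within the vehicle range. Cdh5, the VE-cadherin of adherens junctions, had 16.1, 16.2 and 20.9 FPKM with vehicle, 21.3, 17.3 and 28.1 FPKM at 0.1 mg/kg, and 10.5, 28.1 and 30.1 FPKM at 1 mg/kg. Cldn5, the claudin of endothelial tight junctions, had 9.86, 10.5 and 21.2 FPKM with vehicle, 5.80, 5.07 and 7.55 FPKM at 0.1 mg/kg, and 2.36, 13.2 and 13.1 FPKM at 1 mg/kg. The 0.1 mg/kg values of Cldn5 were all below vehicle, with a log2 difference of −0.99 that did not pass (SE 0.53; limma, adjusted p = 0.162). Esam, an adhesion molecule of tight junctions, had 8.45, 9.47 and 10.4 FPKM with vehicle, 10.9, 8.87 and 12.8 FPKM at 0.1 mg/kg, and 3.88, 14.1 and 13.7 FPKM at 1 mg/kg. The lectin-family surface protein Clec14a had 0.724, 0.840 and 0.920 FPKM with vehicle, 1.27, 1.11 and 1.97 FPKM at 0.1 mg/kg, and 0.373, 2.46 and 1.83 FPKM at 1 mg/kg. Clec14a lay above vehicle without overlap at 0.1 mg/kg, at a log2 difference of 0.41 that did not pass (limma, adjusted p = 0.309). With every vehicle value below 1 FPKM, Clec14a met the filter through digoxin libraries alone. Pecam1, which leukocytes and platelets also carry, ranged from 4.23 to 13.8 FPKM, the sialomucin Emcn from 1.11 to 3.47 FPKM, Ecscr from 4.07 to 13.0 FPKM and Gpihbp1, which holds lipoprotein lipase on capillaries, from 2.43 to 13.0 FPKM.

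None of the 4 tested transcription factors passed at either dose. Sox18 had 10.9, 12.0 and 13.1 FPKM with vehicle, 11.4, 9.98 and 14.4 FPKM at 0.1 mg/kg, and 5.86, 15.2 and 15.5 FPKM at 1 mg/kg. Fli1 had 3.69, 3.47 and 4.31 FPKM with vehicle, 4.36, 3.79 and 4.58 FPKM at 0.1 mg/kg, and 2.24, 3.98 and 3.82 FPKM at 1 mg/kg. Sox17, a factor of arterial endothelium, had 1.15, 1.22 and 1.65 FPKM with vehicle, 1.23, 0.966 and 1.70 FPKM at 0.1 mg/kg, and 0.590, 2.01 and 2.40 FPKM at 1 mg/kg. All 3 were lowest of all in sample 1 of the 1 mg/kg group. Erg ranged from 0.785 to 2.37 FPKM and Tal1 from 0.441 to 0.953 FPKM. Nos3, the nitric oxide synthase of endothelium, had 2.47, 2.16 and 2.76 FPKM with vehicle, 1.76, 1.34 and 2.58 FPKM at 0.1 mg/kg, and 0.831, 2.42 and 2.63 FPKM at 1 mg/kg. Rasip1, which acts in vessel tube formation, had 1.59, 1.80 and 2.01 FPKM with vehicle, 1.30, 1.24 and 1.87 FPKM at 0.1 mg/kg, and 0.828, 2.19 and 2.40 FPKM at 1 mg/kg. In both genes the groups overlapped.

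Ordered by the mean over the 9 libraries, Eng (47.7 FPKM), Plvap (33.2 FPKM), Cdh5 (21.0 FPKM), Apln (17.3 FPKM) and Sox18 (12.0 FPKM) led, and Tal1 (0.659 FPKM) and Flt4 (0.567 FPKM) came last. Each gene overlapped in range with its neighbour in that order.

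Leaving out sample 1 of the 1 mg/kg group changed the result at 1 mg/kg more than any other single library. Without it, 15 of 32 genes passed against vehicle (46.9%), where 53.9% of all tested genes passed (28.1% higher and 25.7% lower). Higher were Flt1, Tie1 and Ptprb among the receptors, Angpt2, Egfl7, Vwf and Mmrn2 among the secreted factors, Cdh5, Esam, Icam2, Clec14a and Plvap on the surface, and the factor Sox17. Podxl and Cd34 were again lower, by 0.61 (SE 0.12; limma, adjusted p = 0.00486) and 0.84 (SE 0.14; limma, adjusted p = 0.00213). The median log2 fold change of the 32 genes was then 0.33, and that of all tested genes 0.01. Plvap was higher by 0.96 (SE 0.18; limma, adjusted p = 0.00395), Clec14a by 0.78 (SE 0.17; limma, adjusted p = 0.0074) and Cdh5 by 0.69 (SE 0.19; limma, adjusted p = 0.0166). As Clec14a met the filter through digoxin libraries alone, it could enter this and later counts only as higher. Esam had a difference of −0.02 with all libraries and 0.52 without that sample (SE 0.14; limma, adjusted p = 0.0162). The fit shares its spread over all groups, so at 0.1 mg/kg the same omission gave 8 calls (51.7% of all tested genes passed), adding Eng and Plvap as higher and Dll4 and Cldn5 as lower, and none passed between the doses (0% of all tested genes passed).

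**Figure D3:**
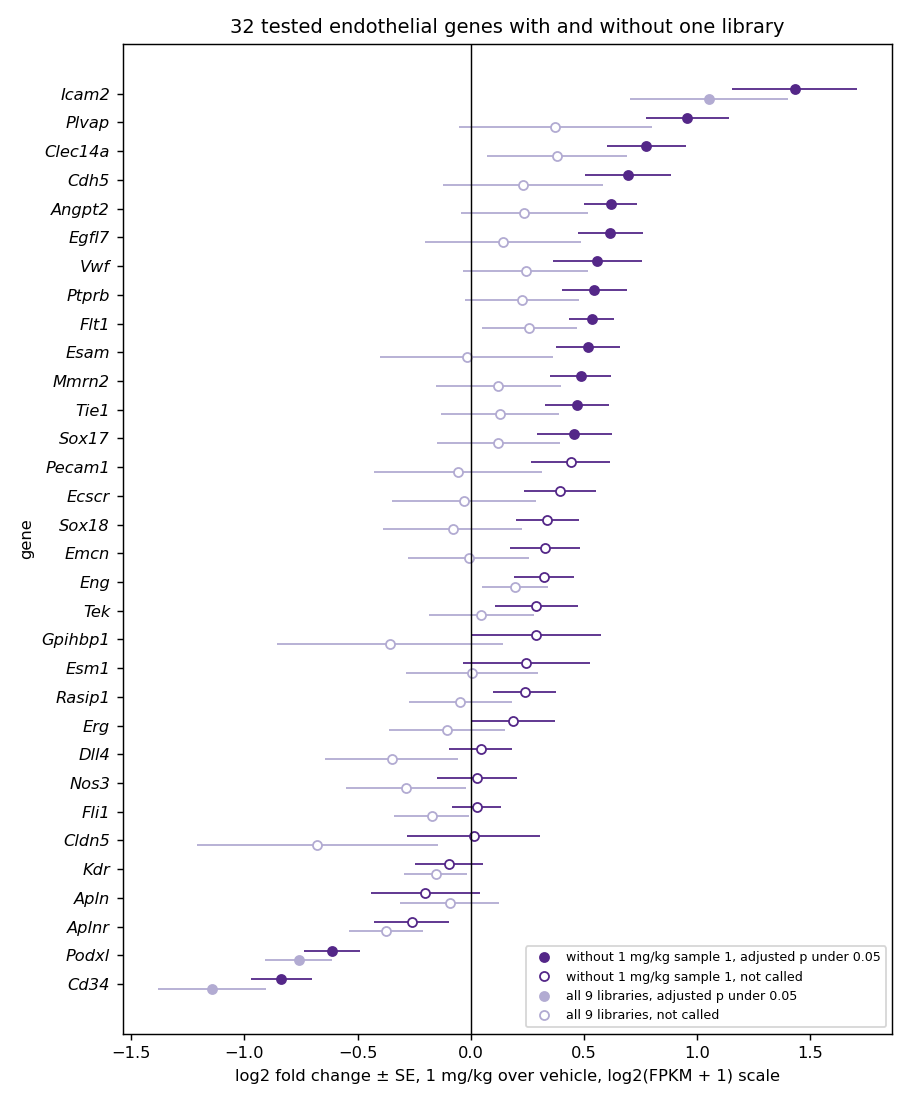
For each of the 32 tested endothelial genes, the log2 fold change at 1 mg/kg over vehicle on the log2(FPKM + 1) scale is shown with its SE, from all 9 libraries in pale symbols and without sample 1 of the 1 mg/kg group in dark symbols. Filled symbols passed an adjusted p of 0.05. Filled symbols number 3 with all libraries and 15 without that sample, while Podxl and Cd34 stay at the low end in both.

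Without sample 2 of the 0.1 mg/kg group, 5 genes passed at that dose (48.5% of all tested genes passed), Eng being added as higher, 3 passed at 1 mg/kg (48.9%) and 1 between the doses, Apln (0.972%). With that library and sample 1 of the 1 mg/kg group both left out, 14 of 32 genes passed at 0.1 mg/kg (9 higher and 5 lower) and 19 at 1 mg/kg (17 higher and 2 lower). Of all tested genes, 61.5% then passed at 0.1 mg/kg (31.9% higher and 29.6% lower) and 61.3% at 1 mg/kg (31.4% higher and 29.9% lower). Icam2 then rose by 1.71 (SE 0.09, against 0.35 with all libraries; limma, adjusted p = 6.41e-06) at 0.1 mg/kg, and Cd34 fell by 0.85 (SE 0.12; limma, adjusted p = 0.000666). Both libraries were picked after the values were seen, as the digoxin libraries nearest vehicle on the first component. They also held the lowest Icam2 value of each dose. Leaving them out narrows the spread and favours calls, so these counts and p-values are no independent support. Between the doses Apln and Flt1 were higher at 1 mg/kg (3.4% of all tested genes passed), by 1.01 (SE 0.11; limma, adjusted p = 0.0072) and 0.47 (SE 0.09; limma, adjusted p = 0.0437).

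Because the level of the whole set differed so much between libraries, each gene was also expressed as its FPKM over the geometric mean of the other tested endothelial genes in the same library. This measure was chosen after the values were seen, carries no test, and shows unequal change only. At 0.1 mg/kg against vehicle, 19 of 32 ratios did not overlap (12 higher and 7 lower; 59.4%), where 38.6% of all tested genes had ratios to the same set that did not overlap (28.3% higher and 10.3% lower). For 1 mg/kg against vehicle, 13 did not overlap (8 higher and 5 lower; 40.6%), where the share over all tested genes was 22.6% (18.5% higher and 4.14% lower). Between the doses, 4 of 32 ratios did not overlap (12.5%, against 3.37% of all tested genes). In FPKM itself, 11 of 32 genes did not overlap between 0.1 mg/kg and vehicle (34.4%, against 60.2% of all tested genes) and 4 between 1 mg/kg and vehicle (12.5%, against 58.3%), with 2 between the doses, Apln and Aplnr (6.25%, against 17% of all tested genes). The ratio thus separated more endothelial genes than the level did, but the measure itself favours this. Dividing by a mean of these same genes takes out the spread they share, and adds that spread to unrelated genes. The shares of endothelial and of all tested genes are therefore not a fair contrast, and no conclusion is drawn from them.

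Sample 1 of the 1 mg/kg group lay with the other samples of its group in several of these ratios. Sox18 stood at 2.66, 2.92 and 2.70 times the set in the vehicle libraries, 2.60, 2.84 and 2.88 times at 0.1 mg/kg, and 2.70, 2.68 and 2.69 times at 1 mg/kg. The ratio of Cd34 was 2.45, 1.89 and 2.05 in vehicle tumours, 0.954, 1.06 and 0.988 in the 0.1 mg/kg group, and 0.909, 0.767 and 0.829 in the 1 mg/kg group, so that the digoxin ratios were all below those of vehicle. Icam2 had ratios of 1.05, 1.07 and 0.982 in vehicle tumours, 3.68, 2.34 and 3.84 in the 0.1 mg/kg group, and 2.73, 2.54 and 2.38 in the 1 mg/kg group. For Cdh5 the ratios were 3.96, 4.01 and 4.38 in vehicle tumours, 4.95, 5.02 and 5.75 in the 0.1 mg/kg group, and 4.92, 5.04 and 5.33 in the 1 mg/kg group, all digoxin ratios being above vehicle.

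Plvap had ratios of 5.72, 5.37 and 5.30 in vehicle tumours, 10.7, 9.19 and 9.99 in the 0.1 mg/kg group, and 6.13, 9.34 and 7.37 in the 1 mg/kg group, also without overlap between digoxin and vehicle. Dll4 had 0.962, 0.891 and 0.913 in vehicle tumours, 0.622, 0.643 and 0.654 in the 0.1 mg/kg group, and 0.589, 0.651 and 0.793 in the 1 mg/kg group. Nos3 had 0.573, 0.500 and 0.541 in vehicle tumours, 0.378, 0.356 and 0.488 in the 0.1 mg/kg group, and 0.360, 0.400 and 0.431 in the 1 mg/kg group. Both were below vehicle in all 6 digoxin libraries, as was Cldn5. Apln, Eng, Kdr and Tie1 behaved otherwise, with ratios in sample 1 of the 1 mg/kg group (11.1, 19.5, 0.685 and 1.65) above those of all other libraries. The untested Tal1 did so too (0.237).

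**Figure D4:**
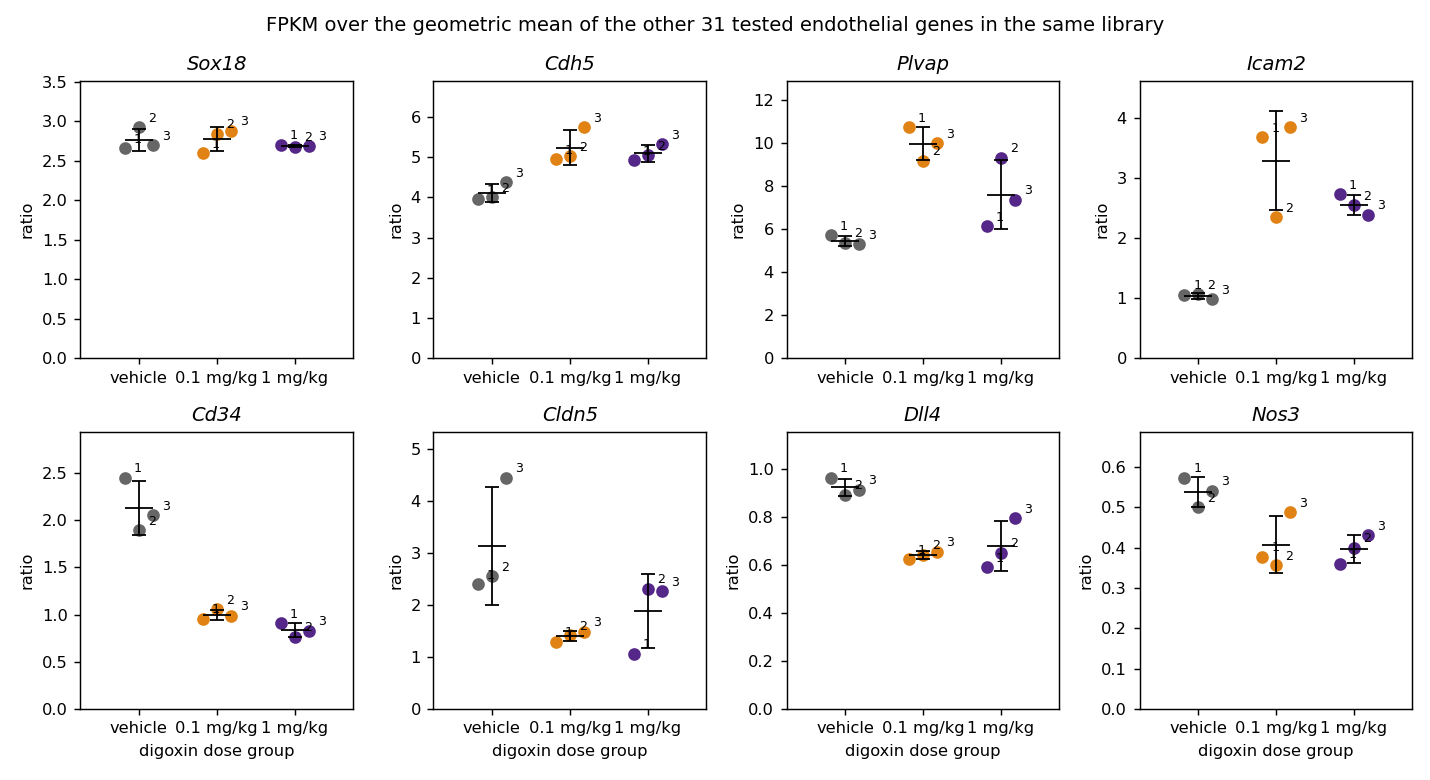
Points are the FPKM of a gene over the geometric mean of the other 31 tested endothelial genes in the same library, for 8 genes and the groups vehicle, 0.1 mg/kg and 1 mg/kg, numbered by sample, with the mean and SD of 3 libraries. Sox18 stays between 2.60 and 2.92 in all 9 libraries; Cd34, Cldn5, Dll4 and Nos3 are lower and Cdh5, Plvap and Icam2 higher in the digoxin libraries than in vehicle.

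Companion lists of the surrounding pathways also held genes that passed. Their counts with all libraries stand against the 42.2% of all tested genes that passed at 0.1 mg/kg and the 45.9% at 1 mg/kg. Selp, Sele, Jag1, Angpt4, Car4, Itga2b and Myh1, named below, stayed under 1 FPKM in all 3 vehicle libraries. These genes met the filter through digoxin libraries alone, so they could enter the counts only as higher. Of 7 VEGF ligands and neuropilins, 1 was higher and 1 lower at 0.1 mg/kg (28.6%) and 3 were higher and 1 lower at 1 mg/kg (57.1%), with list medians of 0.12 and 0.01. Vegfa, the main ligand of Kdr, had 14.6, 14.2 and 13.3 FPKM with vehicle, 24.3, 13.7 and 12.4 FPKM at 0.1 mg/kg, and 70.5, 21.3 and 31.0 FPKM at 1 mg/kg. It was highest in sample 1 of the 1 mg/kg group, the library in which the endothelial genes were lowest. The change at 0.1 mg/kg was 0.18 (SE 0.39; limma, adjusted p = 0.725) and it rose by 1.31 at 1 mg/kg (SE 0.39; limma, adjusted p = 0.0257), a call lost without any single vehicle sample. Without sample 1 of the 1 mg/kg group Vegfa was higher by 0.83 (SE 0.27; limma, adjusted p = 0.0301). Vegfc, the lymphatic growth factor, rose by 1.09 (SE 0.21; limma, adjusted p = 0.00475) and 1.33 (SE 0.21; limma, adjusted p = 0.00191) at 0.1 and 1 mg/kg. Pgf, a ligand of Flt1, rose by 1.23 at 1 mg/kg (SE 0.26; limma, adjusted p = 0.00569), while the co-receptor Nrp2 fell by 0.94 at 0.1 mg/kg and by 0.95 at 1 mg/kg.

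Of 13 tested angiopoietin, Notch and arteriovenous genes, 2 were higher and 4 lower at 0.1 mg/kg (46.2%, against 42.2% of all tested genes), and 3 were higher and 4 lower at 1 mg/kg (53.8%, against 45.9%). Both shares were near those of all tested genes, and the list medians were −0.06 and −0.09. The receptor Notch1 had 2.32, 2.35 and 2.96 FPKM with vehicle, 0.993, 0.867 and 0.897 FPKM at 0.1 mg/kg, and 0.855, 0.970 and 1.01 FPKM at 1 mg/kg. It fell by 0.88 (SE 0.11; limma, adjusted p = 0.00108) and by 0.86 (SE 0.11; limma, adjusted p = 0.000985). Its target Hes1 fell by 1.66 and 1.70 and the arterial ligand Efnb2 by 1.05 and 1.20 at 0.1 and 1 mg/kg, while Acvrl1, a receptor that works with Eng, rose by 0.99 and 1.19. Jag1 rose by 1.27 at 1 mg/kg. Angpt1, the activating ligand of Tek, fell by 1.33 and 1.36, calls lost in 6 of the 9 fits without 1 library at 0.1 mg/kg and in 5 at 1 mg/kg. Angpt4 was the remaining gene called higher, by 1.00 and 1.39, and at 0.1 mg/kg it lost its call in 6 of the 9 fits.

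The list of guidance and sphingosine receptors holds 7 genes, 1 of which, Pdgfb, is no receptor but a growth factor ligand that draws pericytes to vessels. The receptor Unc5b and Pdgfb were lower at both doses (28.6% of the list at each), with medians of −0.14 and −0.02, and Unc5b at 1 mg/kg lost its call in 3 of the 9 fits without 1 library. Without sample 1 of the 1 mg/kg group 2 were higher and 2 lower at that dose (53.9% of all tested genes passed). Without both libraries that stood apart 4 were higher and 2 lower (61.3% of all tested genes passed). Of 7 tested genes listed as secreted inhibitors of angiogenesis, 5 were lower at 0.1 mg/kg (71.4%) and 3 were lower and 1 higher at 1 mg/kg (57.1%; medians −0.60 and −0.51). Vash2, on that list as a relative of the inhibitor Vash1, is known to promote angiogenesis. The genes that fell were Thbs2, Adamts1, Vash1, Col18a1 and Serpinf1 at 0.1 mg/kg, and Thbs2, Vash2 and Serpinf1 at 1 mg/kg. Thbs2, a matrix thrombospondin, fell by 0.60 at each dose. Calls of Adamts1 and Vash1 at 0.1 mg/kg and of Serpinf1 and Vash2 at 1 mg/kg were lost in 3 to 7 of the 9 fits without 1 library. Thbs1 rose by 1.76 at 1 mg/kg, a call lost in 4 of the 9 fits, and without sample 1 of that group its change of 1.45 did not pass (SE 0.59; limma, adjusted p = 0.0689). Among 5 adhesion molecules for leukocytes, 3 were higher at 0.1 mg/kg (60%), and 2 were higher and 1 lower at 1 mg/kg (60%), with medians of 0.85 and 0.92. At 1 mg/kg 4 were higher and 1 lower without both libraries that stood apart (61.3% of all tested genes passed). Selp rose by 1.54 and 1.07 and Sele by 1.43 and 1.24, both selectins of activated endothelium, Icam1 rose by 0.85 at 0.1 mg/kg, and Vcam1 fell by 0.46 at 1 mg/kg. Vehicle values were 0.359, 0.335 and 0.171 FPKM for Selp and 0.873, 0.557 and 0.492 FPKM for Sele, below the filter level. Selp is also stored in platelets.

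Further endothelial transcription factors numbered 9 tested, with 1 higher and 2 lower at 0.1 mg/kg (33.3%) and 3 higher and 2 lower at 1 mg/kg (55.6%; medians 0.22 and 0.15). Without sample 1 of the 1 mg/kg group, 3 were higher and 2 lower at 0.1 mg/kg (51.7% of all tested genes passed). Klf2, a factor that endothelium induces under flow, had 28.5, 23.2 and 28.2 FPKM with vehicle, 61.5, 46.1 and 50.3 FPKM at 0.1 mg/kg, and 149, 92.5 and 75.0 FPKM at 1 mg/kg. It rose by 0.95 (SE 0.23; limma, adjusted p = 0.0118) and 1.89 (SE 0.23; limma, adjusted p = 0.000784), and the highest value was in sample 1 of the 1 mg/kg group. Klf4 rose by 1.86 at 1 mg/kg, and Ets1 fell by 0.92 and 0.75. Foxf1 fell by 1.46 and 1.66, and Ets2 rose by 0.67 at 1 mg/kg, a call lost in 5 of the 9 fits without 1 library. Of 8 capillary lipid handling genes, Cd36 and Car4 were higher at 0.1 mg/kg (25%) and Cd36 at 1 mg/kg (12.5%; medians 0.23 and 0.36). For 1 mg/kg, 3 were higher without sample 1 of that group, 2 without sample 2 of the 0.1 mg/kg group and 6 without both. Of all tested genes, 53.9%, 48.9% and 61.3% passed in those fits. At 0.1 mg/kg 4 were higher without both (61.5% of all tested genes passed). At 0.1 mg/kg Cd36 lost its call in 6 of the 9 fits without 1 library and Car4 in 3.

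Markers of other cells differed between the libraries as well. Summed FPKM of the 12 pericyte and smooth muscle markers was 78.8, 80.1 and 86.1 in vehicle tumours, 78.4, 55.6 and 80.1 in the 0.1 mg/kg group, and 33.7, 76.4 and 119 in the 1 mg/kg group, lowest in the same sample as the endothelial genes. This sum includes Des, which skeletal muscle also makes. Des had 5.16, 3.39 and 3.87 FPKM with vehicle, 17.8, 13.2 and 19.2 FPKM at 0.1 mg/kg, and 3.16, 15.7 and 44.0 FPKM at 1 mg/kg. It thus raises most of the digoxin sums more than those of vehicle. None of the 9 tested pericyte markers passed at either dose in limma, with an unadjusted p under 0.05 for 2 at 0.1 mg/kg and 0 at 1 mg/kg. Without sample 1 of the 1 mg/kg group, 1 was higher and 2 were lower at 0.1 mg/kg and 1 was higher at 1 mg/kg. Of all tested genes, 51.7% and 53.9% passed in that fit. Without both libraries that stood apart 3 were higher and 1 lower at 1 mg/kg (61.3% of all tested genes passed). The 5 mast cell markers summed to 22.9, 24.3 and 19.5 FPKM with vehicle, 57.2, 34.5 and 46.2 FPKM at 0.1 mg/kg, and 9.58, 62.0 and 81.6 FPKM at 1 mg/kg. None of the 5 passed in limma, with an unadjusted p under 0.05 for 1 at 0.1 mg/kg and 0 at 1 mg/kg. But without sample 1 of the 1 mg/kg group 3 were higher at 0.1 mg/kg and 4 at 1 mg/kg, where 51.7% and 53.9% of all tested genes passed. Skeletal muscle markers summed to 123, 52.0 and 52.7 FPKM with vehicle, 334, 193 and 369.7 FPKM at 0.1 mg/kg, and 90.2, 456 and 1190.2 FPKM at 1 mg/kg, and 5 of 9 were higher at 0.1 mg/kg (55.6%) and 4 at 1 mg/kg (44.4%). Without sample 1 of the 1 mg/kg group 8 were higher at 0.1 mg/kg and 9 at 1 mg/kg, where 51.7% and 53.9% of all tested genes passed. Eno3, the enolase of muscle, rose by 1.30 and 1.75 and kept its call in each fit that left out 1 library. Among the other fast-muscle genes, the calls at 0.1 mg/kg were lost in 7 of the 9 such fits for Tnnt3 and for Tnni2, in 6 for Atp2a1 and in 5 for Myh1. Calls lost at 1 mg/kg were those of Atp2a1 in 7 fits, of Tnnt3 in 4 and of Tnni2 in 1. In summed FPKM, sample 1 was therefore the lowest of the 1 mg/kg group for pericyte, mast cell and muscle markers too, though for muscle it lay within the vehicle range. Acta2, on the pericyte and smooth muscle list, went the other way, with 13.4 FPKM in sample 1 against 8.64 and 10.7 FPKM in samples 2 and 3. The part of tissue makeup in the endothelial values was not tested.

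**Figure D5:**
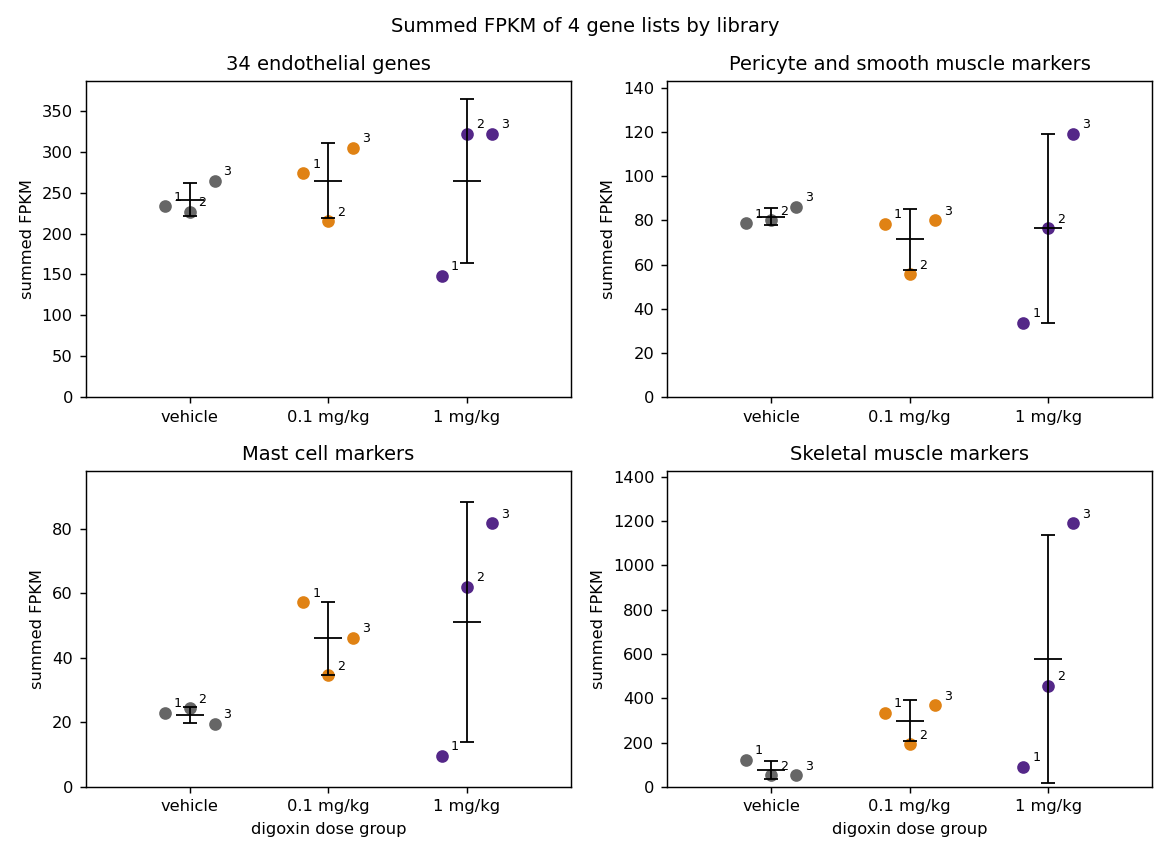
Points are the summed FPKM of the 34 endothelial genes and of the pericyte and smooth muscle, mast cell and skeletal muscle markers in single libraries, numbered by sample, by group, with the mean and SD of 3 libraries. Sample 1 of the 1 mg/kg group is the lowest of its group in all 4 panels, with 148 FPKM for the endothelial genes against 322 FPKM in samples 2 and 3. The pericyte and smooth muscle sum includes Des, which skeletal muscle also makes.

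With all libraries, calls among blood cell markers at either dose were in the higher direction. Platelet markers summed to 186, 88.4 and 63.9 FPKM with vehicle, 462, 339 and 276 FPKM at 0.1 mg/kg, and 349, 413 and 454 FPKM at 1 mg/kg, and 2 of 3 tested were higher at each dose. Most of each sum was Pf4, with 161, 79.1 and 57.9 FPKM in the vehicle libraries. Itga2b, Gp9, Gp1ba and Treml1 reached at most 1.48, 0.953, 0.472 and 0.739 FPKM in any library. The sums thus mostly follow Pf4, and a change in platelet number was not tested. The platelet chemokine Pf4 rose by 1.82 and 1.95, calls that stood in all 9 fits without 1 library, while the call of Itga2b at 0.1 mg/kg was lost in 7 of them, sample 2 of that group among the libraries left out, and that of Ppbp at 1 mg/kg in 1. The 4 markers shared by leukocytes summed to 153 to 179 FPKM with vehicle, 206 to 291 FPKM at 0.1 mg/kg and 188 to 216 FPKM at 1 mg/kg, with 3 higher at 0.1 mg/kg, Cd53, Coro1a and Laptm5, and 1 at 1 mg/kg, Cd53. The median log2 fold change of these 4 at 1 mg/kg was 0.01. Without both libraries that stood apart 1 was higher and 1 lower at that dose (61.3% of all tested genes passed). At 0.1 mg/kg Laptm5 lost its call in 4 of the 9 fits without 1 library. Their part in the rise of Icam2 and the selectins was not tested. Red blood cell markers summed to 134 to 325 FPKM with vehicle, 261 to 1394 FPKM at 0.1 mg/kg and 371 to 631 FPKM at 1 mg/kg, with 1 of 5, Hba-a2, higher at each dose (20%). Its calls were lost in 2 of the 9 fits without 1 library at 0.1 mg/kg and in 4 at 1 mg/kg. Without sample 2 of the 0.1 mg/kg group 3 of the 5 red cell markers were higher at 0.1 mg/kg and 2 at 1 mg/kg. Of all tested genes, 48.5% and 48.9% passed in that fit. Of the lymphatic markers, the defining gene Prox1 and also Reln stayed below 0.1 FPKM in every library, and Lyve1, which macrophages also carry, was higher at 1 mg/kg by 1.85 (SE 0.42; limma, adjusted p = 0.00838). The 2 tested lymphatic markers held no call at 0.1 mg/kg with all libraries (1 had an unadjusted p under 0.05). They held 1 without sample 1 of the 1 mg/kg group (51.7% of all tested genes passed). Of 5 adipocyte markers 1 was tested, Lipe, which was higher at 0.1 mg/kg, a call lost in 4 of the 9 fits without 1 library, and passed at 1 mg/kg without sample 1 of that group and not with all libraries.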

How the data were processed

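RNA from subcutaneous LLC tumours of vehicle and digoxin-treated mice was enriched for poly(A) and sequenced, per the labels' protocols. The submitters' processing notes name fastp 0.22.0, HISAT2 2.2.1 and the human build GRCh38, although the gene symbols of the table are those of mouse, so no gene coordinates were taken from it. No label or header names the counter or annotation (not given in the sources used here). The authors deposited FPKM per gene and sample. Since these are not counts, tests used limma 3.58.1 in R 4.3.3 on log2(FPKM + 1) with an intensity trend, in 1 fit of all 9 samples.

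Genes needed at least 1 FPKM in at least 3 libraries, which left 13687 of 35321. Two-sided p-values were adjusted by the Benjamini-Hochberg method over all of these, at 0.05. An exact permutation test of 3 samples against 3 cannot go below 0.1, so none is given. The fit had 6 residual degrees of freedom and a prior of 2.71. It was also run on simulated data, but no outcome of that run is given here and none is relied on. Depth and reads per gene were recovered from the spacing of the deposited FPKM values, and depth bounds the precision of low genes. Summaries and plots used Python 3.11.15, NumPy 2.4.6, pandas 2.3.3 and matplotlib 3.10.9.

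The 34 genes and the companion lists were chosen with earlier results of these data known. All 34 are described, and of the companion lists the genes that passed the test are named; Vegfa was to be named whatever its test gave. Alternatives were a pseudocount of 0.1, no filter, a mean of at least 5 FPKM, rescaling to TPM, quantile normalisation, equal medians, other limma settings, a replicate block, limma-voom on recovered reads, a threshold of 0.01 and leaving out libraries. The ratio to the other endothelial genes was added after the values were seen.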

Additional observations from a re-analysis of the deposited data

How the results depend on the processing

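The number of endothelial genes past the threshold kept within 1.5 times its value under most alternatives. At 0.1 mg/kg against vehicle it was 4. It was 7 (21.9%) when only the compared groups were fitted, where 6465 of the 13687 tested genes passed. Without both libraries between the groups it was 14, where 8424 of all tested genes passed. At an adjusted p of 0.01 it was 0, and it ran from 2 to 8 when 1 library was left out. At 1 mg/kg against vehicle it was 3, with 19 without both libraries, where 8392 of all tested genes passed. It ran from 2 to 15 when 1 library was left out. The 15 were without sample 1 of the 1 mg/kg group, where 7373 of all tested genes passed. Between the doses it was 0, with 2 without both libraries and 0 to 1 when 1 library was left out. The cause was not tested. Over all tested genes, 5781 passed at 0.1 mg/kg, 2722 at an adjusted p of 0.01 and as few as 3414 with 1 library left out; 6277 passed at 1 mg/kg, 3339 at 0.01, 4159 with a mean of at least 5 FPKM and 4129 without vehicle sample 3; and 2 passed between the doses, against 0 to 465 under the alternatives. Rescaling to TPM moved the median log2 fold change of all tested genes at 0.1 mg/kg to −0.09, against 0.02, and that of the endothelial genes to −0.14, against −0.02. Of 2975 results for single genes under the alternatives, 2623 kept direction and call, 228 lost a call, 45 gained one and 79 changed sign, 5 of them with a call in either fit.

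Signs that changed at 0.1 mg/kg against vehicle were those of Flt1 (−0.019), Ptprb (−0.013) and Vwf (−0.018) with quantile normalisation, and of Erg (0.039), Pecam1 (0.090), Sox17 (0.076), Sox18 (0.092) and Tie1 (0.068) without both libraries. At 1 mg/kg against vehicle they were those of Emcn (0.00026) with equal medians, of Esm1 (−0.013) and Tek (−0.0056) with limma-voom, of Esm1 (−0.0093) with a pseudocount of 0.1, of Esm1 (−0.039) and Tek (−0.071) with quantile normalisation and of Esm1 (−0.079) and Tek (−0.029) with TPM. Without both libraries they were those of Cldn5 (0.013), Dll4 (0.045), Ecscr (0.40), Emcn (0.33), Erg (0.19), Esam (0.52), Fli1 (0.026), Gpihbp1 (0.29), Nos3 (0.028), Pecam1 (0.44), Rasip1 (0.24) and Sox18 (0.34).

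With 1 library left out, log2 differences at 0.1 mg/kg against vehicle that changed sign ran from −0.25 to 0.039 for Erg, −0.18 to 0.090 for Pecam1, −0.15 to 0.076 for Sox17, −0.15 to 0.092 for Sox18, −0.23 to 0.059 for Tek, −0.11 to 0.072 for Tie1, −0.099 to 0.36 for Vegfa and −0.032 to 0.27 for Vwf. Between the doses they ran from −0.0044 to 0.42 for Flt1. At 1 mg/kg against vehicle they ran from −0.026 to 0.62 for Angpt2, −0.20 to 0.0058 for Apln, −0.025 to 0.69 for Cdh5, −1.03 to 0.013 for Cldn5, −0.61 to 0.045 for Dll4, −0.26 to 0.40 for Ecscr, −0.096 to 0.62 for Egfl7, −0.21 to 0.33 for Emcn, −0.27 to 0.19 for Erg and −0.30 to 0.52 for Esam. They further ran from −0.17 to 0.25 for Esm1, −0.28 to 0.026 for Fli1, −0.69 to 0.29 for Gpihbp1, −0.094 to 0.49 for Mmrn2, −0.47 to 0.028 for Nos3, −0.31 to 0.44 for Pecam1, −0.21 to 0.24 for Rasip1, −0.091 to 0.46 for Sox17, −0.30 to 0.34 for Sox18, −0.077 to 0.29 for Tek and −0.045 to 0.47 for Tie1.

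Samples with the same number were not taken as paired, since not every correlation exceeded 0.1. Their deviations correlated at 0.193, 0.132 and 0.0908 between 0.1 mg/kg and vehicle, 0.00057, −0.0587 and −0.00619 between 1 mg/kg and vehicle, and −0.244, −0.441 and 0.279 between the doses, and 6, 0 and 1 of the 6 samples of each pair of groups correlated best with their own number, so that the numbers of the 0.1 mg/kg and vehicle samples carry a hint of pairing that the labels do not state. With the number as a replicate block, 4, 2 and 0 endothelial genes passed, Icam2 at 1 mg/kg being the one lost. Flt4 and Tal1, untested because of the FPKM filter, had 83 to 410 and 83 to 179 recovered reads, and 3 samples per group limit the precision of each value.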
